A study of Mus musculus with 6 samples.

Results

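Mouse bone marrow neutrophils carry a family of C-type lectin receptors on their surface, and 7 genes of this family are described here in naive and tumor-bearing mice. They are Clec4a2, Clec12a, Clec4e, Clec4d, Clec4n, Clec5a and Clec7a. They were chosen by gene symbol as receptors of myeloid cells, and all 7 of them were found among the 38887 gene identifiers of the count table. The neutrophils were taken with beads against Ly6G, and the labels give a purity over 95%. Naive mice received no tumor cells, and the other mice received LL2 cells, a Lewis lung carcinoma line that carries luciferase, by vein as an orthotopic lung tumor model 1 week (one-week LL2 mice) or 3 weeks (three-week LL2 mice) before collection. All mice were C57BL/6 according to the methods, and no transgene or drug treatment is given for any of these groups in the labels. Each group had 2 libraries of total RNA, each labelled as a mouse with a replicate number, and totals ran from 11994158 to 14127919 counts. The labels do not state whether the replicates are separate animals. A figure legend of the paper gives 3 samples per group. The labels give no age or sex.

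C-type lectin receptors are membrane proteins that bind sugars, lipids and material from dying cells. Activating members pass a signal through an immunoreceptor tyrosine motif, carried by an adaptor protein or by the receptor itself, to the kinase Syk and from there to the complex of Card9, Bcl10 and Malt1, which turns on NF-kappaB. Inhibitory members carry a tyrosine motif that recruits phosphatases such as the product of Ptpn6, and on neutrophils both kinds are known for setting the response to fungi, mycobacteria and injured tissue. Clec4a2 (DCIR) and Clec12a (MICL) are inhibitory. Clec4e (Mincle), Clec4d (MCL) and Clec4n (Dectin-2) signal through the adaptor of Fcer1g, Clec5a through the adaptor of Tyrobp, and Clec7a (Dectin-1), the receptor for fungal beta-glucan, through its own motif.

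All 7 genes lie on chromosome 6 of GRCm38. Clec4a2 (ENSMUSG00000030148, 123106428 to 123143999, plus strand), Clec4n (ENSMUSG00000023349, 123229843 to 123247021, plus strand), Clec4d (ENSMUSG00000030144, 123262111 to 123275265, plus strand) and Clec4e (ENSMUSG00000030142, 123281789 to 123289870, minus strand) form 1 cluster. The gaps between these neighbours are 85.8 kb, 15.1 kb and 6.52 kb. Clec12a (ENSMUSG00000053063, 129342691 to 129365303, plus strand) and Clec7a (ENSMUSG00000079293, 129461591 to 129472779, minus strand) lie 96.3 kb apart in a further cluster. Clec5a (ENSMUSG00000029915, 40574894 to 40585821, minus strand) stands far from the others. The annotation lists Clec7a as a polymorphic pseudogene and the other 6 as protein coding. Of the 75-base windows in the transcripts of Clec4a2, 3.24% also occur in Clec4a4 or Clec4b1, so a small part of its reads could be shared with these paralogs, while the other 6 genes share 0 such windows.

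The 250 bases before the RefSeq start site are shown for the inhibitory receptors Clec4a2 and Clec12a, the members whose RNA differed between groups, and for Clec4e, an activating neighbour of Clec4a2 that was not called. The windows are chr6:123122440-123122689 (plus strand), chr6:129349994-129350243 (plus strand) and chr6:123289872-123290121 (minus strand) of GRCm38.p6. Each reads 5′ to 3′ along its gene, with capitals at every match on either strand to the letters searched, which were GAGGAA (core of PU.1 sites), TTNNGNAA (C/EBP), TGANTCA (AP-1) and TTCNNNGAA (STAT).
Clec4a2: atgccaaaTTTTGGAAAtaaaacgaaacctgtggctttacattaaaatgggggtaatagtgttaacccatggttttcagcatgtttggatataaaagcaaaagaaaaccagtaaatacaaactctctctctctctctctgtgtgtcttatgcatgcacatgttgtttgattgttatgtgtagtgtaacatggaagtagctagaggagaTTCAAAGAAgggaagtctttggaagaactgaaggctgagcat
Clec12a: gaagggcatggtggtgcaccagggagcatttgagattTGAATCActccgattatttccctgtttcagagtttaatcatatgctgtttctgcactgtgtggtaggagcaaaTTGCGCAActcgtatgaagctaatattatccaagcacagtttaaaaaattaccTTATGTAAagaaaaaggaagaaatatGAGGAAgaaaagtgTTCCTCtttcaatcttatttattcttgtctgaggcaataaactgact
Clec4e: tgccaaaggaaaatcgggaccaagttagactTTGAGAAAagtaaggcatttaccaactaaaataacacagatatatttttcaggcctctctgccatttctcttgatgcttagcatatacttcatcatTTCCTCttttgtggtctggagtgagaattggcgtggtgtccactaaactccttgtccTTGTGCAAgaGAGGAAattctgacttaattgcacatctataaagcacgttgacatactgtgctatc
The RefSeq start lies 16262 bases from the outermost start of Clec4a2 in the gene annotation and 7553 bases from that of Clec12a, so those windows belong to start sites inside the annotated gene. Of the 7 members, 6 had a window in the RefSeq table. Clec4n had no entry. PU.1 letters were found in 5 of the 6, in Clec12a, Clec4d, Clec4e, Clec5a and Clec7a but not in Clec4a2, against 23.3% of all 32851 windows of that length. C/EBP letters also occurred in 5 of the 6, all but Clec7a, against 36.8%. The STAT letters occurred in Clec4a2 alone (7.02% of all windows) and the AP-1 letters in Clec12a alone (6.75%). The pair of C/EBP matches in Clec4a2 overlap by all but 1 base, and no binding was measured here.

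Levels were first compared between the receptors. They are given as CPM, counts scaled to 1000000 per library after library totals were multiplied by TMM factors, divided by the exonic length of the gene in kb, with the SD of 2 libraries. In naive mice Clec4a2 was highest with 171 ± 3.56 CPM per kb. Clec4d with 117 ± 10.6, Clec4e with 116 ± 16.5 and Clec7a with 107 ± 15.3 CPM per kb followed, and the libraries of each overlapped with those of the next, so their order is not resolved. Clec12a had 45.2 ± 2.91, Clec5a 21.6 ± 1.64 and Clec4n 8.72 ± 1.53 CPM per kb, each apart from its neighbours in both libraries. Clec4a2 thus had more RNA per kb than any other member, and Clec4n the least, in each of the 3 groups. In three-week LL2 mice Clec4a2 was at 129 ± 5.22 and Clec4e at 118 ± 7.11 CPM per kb, still apart but closer.

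**Figure D1:**
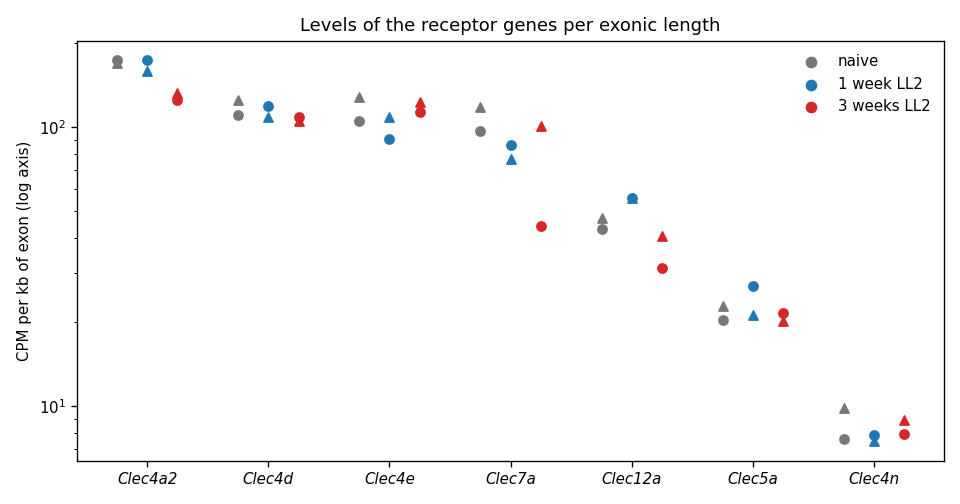
CPM per kb of exon (log axis) of each receptor gene in naive, one-week LL2 and three-week LL2 mice, with 1 point per library (circles for replicate 1 and triangles for replicate 2). Clec4a2 lies highest and Clec4n lowest in all 3 groups, and the Clec7a points of three-week LL2 mice, at 44.3 and 101 CPM per kb, are the farthest apart.

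The order in the middle depends on the length used. With the longest transcript in place of all exons, an alternative added after the data were seen, Clec7a lay above Clec4e in naive mice (124 against 120 CPM per kb), Clec12a reached 94.8 against 94.1 CPM per kb for Clec7a in one-week LL2 mice, and Clec4d lay above Clec4e in three-week LL2 mice (129 against 122 CPM per kb). The inhibitory Clec4a2 and Clec12a together made up 39.0% and 34.9% of the summed CPM per kb of the 7 genes in the naive libraries, 40.9% and 40.0% in the one-week libraries and 34.6% and 32.5% in the three-week libraries. Both three-week shares lay below those of the other 4 libraries, the nearest being 34.6% and 34.9%. The ratio of Clec4a2 to Clec4e per kb was 1.66 and 1.32 in naive mice, 1.91 and 1.47 at 1 week and 1.11 and 1.07 at 3 weeks, so that the lowest ratios were those of the three-week libraries. These shares and ratios were not tested.

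Changes were then tested with edgeR's quasi-likelihood F test over 12259 genes, with all 6 libraries in 1 model and Benjamini-Hochberg adjusted p-values. A gene was called changed at an adjusted p under 0.05. The naive libraries serve both tumor comparisons. All 7 members passed the filter on low counts. Against naive mice, 0 of 7 were called in one-week LL2 mice, where 7.99% of all genes tested were called. At an unadjusted p under 0.05 there was 1, Clec12a, and DESeq2 called 0. In three-week LL2 mice 1 of 7 was called against naive mice, Clec4a2, which fell, beside 9.42% of all genes lower and 21.4% called in either direction. Of the 7 genes, 2 were called between the weeks, Clec12a and Clec4a2, both lower at 3 weeks, beside 9.57% lower and 22.5% in either direction. With so few genes, no excess over these shares is claimed. The genes called are the inhibitory members. Of the 5 activating members 0 were called by edgeR in any comparison, 0 had an unadjusted p under 0.05 and DESeq2 called 0, though settings named below call Clec7a or Clec5a. Activating Clec7a even had the largest change of the 7 at 3 weeks against naive mice (-0.56, unadjusted p = 0.0503 in edgeR). Inhibitory Clec12a was not called in that comparison, so size of change does not separate the kinds there.

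**Figure D2:**
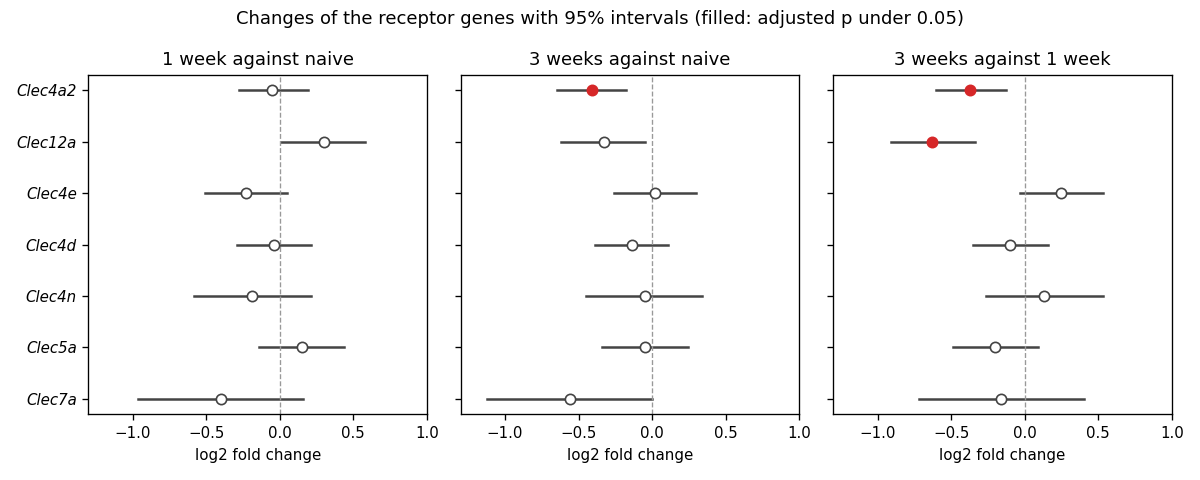
Log2 fold change of each receptor gene in the 3 comparisons, with the 95% interval as a line and filled points for genes with an adjusted p under 0.05 in edgeR. Filled points are Clec4a2 at 3 weeks against naive mice (-0.41) and Clec4a2 (-0.37) and Clec12a (-0.63) at 3 weeks against 1 week.

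Libraries of the compared groups did not overlap for 2 of 7 members at 1 week against naive mice (53.2% of all genes), for 3 of 7 at 3 weeks against naive mice (59.6%) and for 4 of 7 between the weeks (63.8%). The median log2 fold change of the members was -0.05, -0.14 and -0.16 in these comparisons, and that of all genes tested was 0.01, 0.03 and -0.02. In bulk RNA, fewer cells that carry a receptor and less RNA of it per cell cannot be told apart.

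Clec4a2, which encodes the inhibitory receptor DCIR, had 509 and 494 CPM in the naive libraries, 506 and 465 CPM at 1 week and 366 and 387 CPM at 3 weeks. Both three-week libraries lay below the other 4, and the one-week and naive libraries overlapped. At 3 weeks it fell by 24.9% against naive mice, with -0.41 as the log2 fold change (standard error 0.109, 95% interval -0.65 to -0.18, adjusted p = 0.0169 in edgeR). Against 1 week it fell by 22.4%, with -0.37 on that scale (95% interval -0.60 to -0.13, adjusted p = 0.0285), while at 1 week the change from naive mice was -0.05 (95% interval -0.28 to 0.19, adjusted p = 0.849). Both calls depended on single libraries. Without naive replicate 1 or three-week replicate 1, the fall from naive mice was -0.42 (adjusted p = 0.0567) or -0.36 (adjusted p = 0.105). Between the weeks the adjusted p was 0.161 and 0.0612 without one-week replicate 1 and 2, and 0.162 and 0.0685 without three-week replicate 1 and 2.

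Clec12a, which encodes the inhibitory receptor MICL for uric acid crystals and dead cells, had 239 and 261 CPM in naive mice, 306 and 307 CPM at 1 week and 173 and 224 CPM at 3 weeks. The 3 groups did not overlap in any pair, with the one-week libraries highest and the three-week libraries lowest. Between 3 weeks and 1 week it fell by 35.3%, with -0.63 as the log2 fold change (standard error 0.132, 95% interval -0.91 to -0.34, adjusted p = 0.0041 in edgeR). The steps from naive mice did not pass, with 0.30 at 1 week (95% interval 0.01 to 0.58, adjusted p = 0.194) and -0.33 at 3 weeks (95% interval -0.62 to -0.05, adjusted p = 0.0917). Without three-week replicate 1 the difference between the weeks was -0.44 and no longer called (adjusted p = 0.0564). The step from naive mice at 3 weeks was -0.53 and called (adjusted p = 0.022) without three-week replicate 2. It was also called by library size only (-0.48, adjusted p = 0.0227) and with no filter on low counts (-0.36, adjusted p = 0.0347).

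Markers of other cells moved beside these genes. The 12 markers of basophils, eosinophils and mast cells summed to 86.6 to 91.3 CPM in naive mice, 122 to 137 CPM at 1 week and 60.6 to 74.6 CPM at 3 weeks, the same order of groups as Clec12a. Of this list 9 were tested, with 4 called higher at 1 week against naive mice and 5 lower and 1 higher, Siglecf, at 3 weeks against 1 week. Siglecf, an eosinophil receptor gene, went against that order, with 1.52 on the log2 scale (adjusted p = 0.0117), and Ms4a2 was at 3 counts or fewer in every library. Ccr3, the most abundant of the list in naive mice (48.3 and 40.5 CPM), did not take that order, with -0.32 at 1 week and 0.11 between the weeks. Nor did Ear6 (-0.48 at 1 week) and Il5ra (0.93 at 3 weeks against naive mice). Prss34 took it, with 15.2 and 14.3 CPM in naive mice, 39.8 and 44.4 CPM at 1 week and 2.09 and 5.61 CPM at 3 weeks. Markers of dendritic cells summed to 172 to 202, 175 to 188 and 103 to 106 CPM, with 6 of 10 tested called lower at 3 weeks against either group, 1, Siglech, called higher between the weeks (0.98, adjusted p = 0.0427), and Cd209a at 0 in 3 libraries. Markers of monocytes and macrophages, cells in which these receptors are also known, summed to 1860 to 1870, 1830 to 1850 and 1740 to 2170 CPM, with none of the 17 at 0 in any library. Of these, 1 was called higher and 1 lower at 1 week, 2 higher and 3 lower at 3 weeks against naive mice, and 2 higher and 4 lower between the weeks. Mpeg1, a macrophage gene, had 0.64 at 1 week (adjusted p = 0.0287 in edgeR) and -0.60 between the weeks (adjusted p = 0.0156). Unlike Clec12a it was level with naive mice at 3 weeks (0.03, adjusted p = 0.92). Adgre1, which encodes F4/80, had 0.33 at 1 week (adjusted p = 0.263) and -0.59 between the weeks (adjusted p = 0.0237). Nr4a1 took the order of Clec12a. It had 63.8 and 71.8 CPM in naive mice, 92.3 and 85.1 CPM at 1 week and 37.0 and 38.1 CPM at 3 weeks. Its log2 fold changes were 0.39 (adjusted p = 0.067), -0.85 (adjusted p = 0.000357) and, between the weeks, -1.24 (adjusted p = 1.93e-05). Cx3cr1 was called lower at 3 weeks against naive mice (-1.59, adjusted p = 0.00197) and between the weeks (-1.21, adjusted p = 0.0107), with -0.38 at 1 week. Some called genes of this list moved the other way. Irf8 had -0.70 at 1 week (adjusted p = 0.0156), and F13a1 and Vcam1 had 2.03 (adjusted p = 0.000671) and 0.76 (adjusted p = 0.00978) between the weeks. B lineage markers fell from 66.6 to 90.9 CPM in naive mice to 14.5 to 22.9 CPM at 3 weeks, with 10 of 10 called lower. The marker calls here and below stand beside 7.99%, 21.4% and 22.5% of all genes called in the 3 comparisons.

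Neutrophil markers summed to at least 285000 CPM in every library, led by S100a8, while Ly6g, the gene of the selected antigen, had 6 to 32 counts. Within this list of 12, 2 were called higher and 3 lower at 3 weeks against naive mice, and 5 higher and 3 lower between the weeks. Camp, Ltf and Ngp, genes of specific granules, fell against naive mice by 1.04 (adjusted p = 0.000173), 0.64 (adjusted p = 0.00194) and 0.51 (adjusted p = 0.0116) on the log2 scale, and Cxcr2, a receptor gene of mature neutrophils, rose by 0.70 (adjusted p = 0.00288). Among 11 markers of primary granules and dividing precursors, 5 were higher and 3 lower at 3 weeks against naive mice, and 6 higher and 4 lower between the weeks. The primary granule genes Prtn3 and Mpo rose against naive mice by 3.23 (adjusted p = 3.52e-06) and 2.30 (adjusted p = 2.73e-05), while the division genes Top2a and Cdk1 fell by 1.33 (adjusted p = 1.57e-05) and 0.94 (adjusted p = 0.000221). These marker genes are named after their values were seen. The part of other cells, or of the stage of the neutrophils, in the values of Clec4a2 and Clec12a was not tested.

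**Figure D3:**
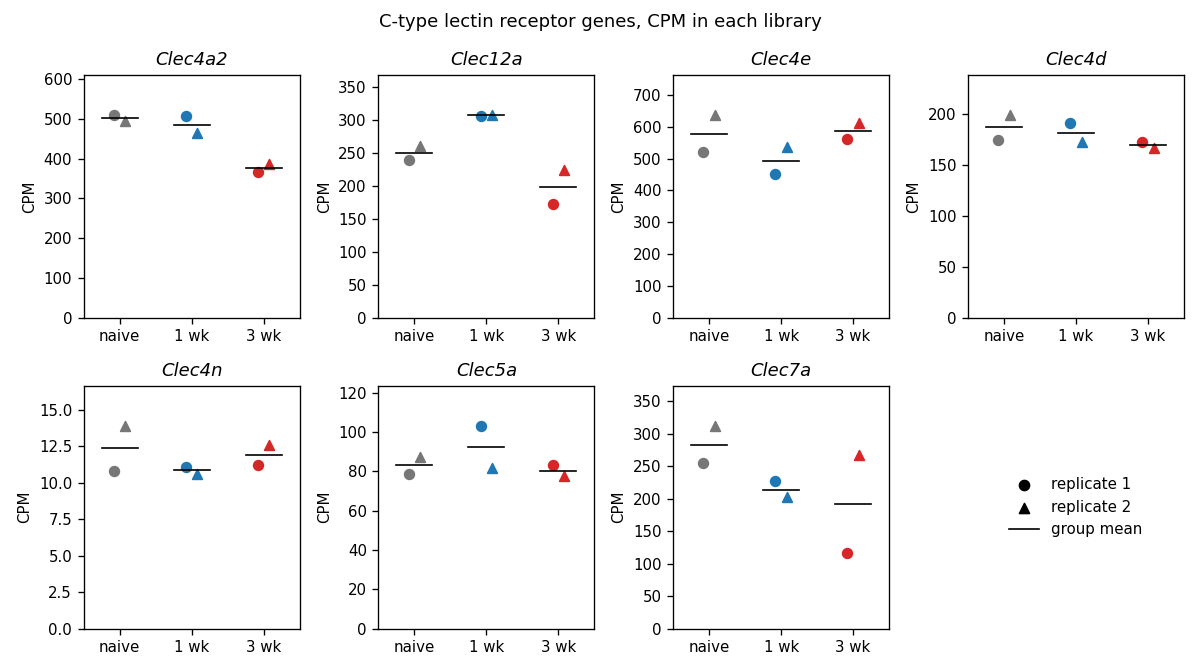
CPM of each receptor gene in each of the 6 libraries, from 0, with circles for replicate 1, triangles for replicate 2 and a line at the mean of the group. The three-week points of Clec4a2 (366 and 387 CPM) and Clec12a (173 and 224 CPM) lie below all others of their gene, and for Clec7a the three-week points (117 and 267 CPM) are far apart.

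Clec4e, which encodes Mincle, the receptor for mycobacterial cord factor and for the nuclear protein SAP130 of dying cells, had 520 and 636 CPM in naive mice, 450 and 537 CPM at 1 week and 561 and 611 CPM at 3 weeks. The naive and three-week libraries overlapped, and the three-week values were both above the one-week values. The log2 fold change was -0.23 at 1 week (95% interval -0.51 to 0.05, adjusted p = 0.325 in edgeR), 0.02 at 3 weeks (95% interval -0.26 to 0.30, adjusted p = 0.939) and 0.25 between the weeks (95% interval -0.03 to 0.53, adjusted p = 0.196). The value at 3 weeks changes sign with the scaling, to -0.12 by library size only.

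Clec4d, whose product MCL pairs with Mincle, had 175 and 199 CPM in naive mice, 191 and 173 CPM at 1 week and 173 and 167 CPM at 3 weeks. Its 6 libraries spanned only 1.19-fold, the narrowest range of the 7 genes, with the three-week libraries just below the naive ones. Log2 fold changes were -0.04 (adjusted p = 0.870), -0.14 (95% interval -0.39 to 0.11, adjusted p = 0.442) and -0.10 (adjusted p = 0.600) in edgeR, and library-size scaling turned the first to 0.01. Clec4n, which encodes Dectin-2, the receptor for fungal mannans, had 10.8 and 13.9 CPM in naive mice, 11.1 and 10.6 CPM at 1 week and 11.2 and 12.6 CPM at 3 weeks, or 137 to 170 counts. The naive libraries enclosed both three-week ones. Its log2 fold changes of -0.19 (95% interval -0.58 to 0.21), -0.05 (95% interval -0.45 to 0.34) and 0.13 (95% interval -0.26 to 0.53) had adjusted p-values of 0.600, 0.878 and 0.647 in edgeR. The last was -0.07 by library size only.

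Clec5a, which encodes the receptor MDL-1, had 78.5 and 87.4 CPM in naive mice, 103 and 81.6 CPM at 1 week and 83.1 and 77.7 CPM at 3 weeks. One-week replicate 1 was highest, and the other 5 libraries lay close together. The log2 fold changes were 0.15 (95% interval -0.14 to 0.44, adjusted p = 0.543), -0.05 (95% interval -0.34 to 0.24, adjusted p = 0.854) and -0.20 (95% interval -0.49 to 0.09, adjusted p = 0.314) in edgeR. Scaled by library size only, the last was -0.40 and called (adjusted p = 0.0477).

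Clec7a, which encodes Dectin-1, had 255 and 312 CPM in naive mice, 227 and 202 CPM at 1 week and 117 and 267 CPM at 3 weeks. Both one-week libraries lay below the naive ones, and the three-week libraries held the lowest value of all 6 and a value within the naive range. The log2 fold changes were -0.40 at 1 week (95% interval -0.96 to 0.16, adjusted p = 0.391 in edgeR), -0.56 at 3 weeks (95% interval -1.12 to 0.00, adjusted p = 0.148) and -0.16 between the weeks (95% interval -0.72 to 0.40, adjusted p = 0.704). Its standard error, 0.26 to 0.261, was the largest of the 7 genes. The three-week values rest on which library is kept. Against naive mice the log2 fold change was -0.08 (adjusted p = 0.816) without three-week replicate 1 and -1.27 (adjusted p = 8.17e-05) without replicate 2, and between the weeks it was 0.33 (adjusted p = 0.181) and -0.86 (adjusted p = 0.00179). With no filter on low counts it was called against naive mice at both times, with -0.40 (adjusted p = 0.0276) and -0.59 (adjusted p = 7.78e-05).

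The three-week libraries differed 2.28-fold for Clec7a, and of 1292 tested genes with a mean of at least 100 CPM, 6 differed by at least that ratio. Of the 14 tested genes in a list known to be induced through these receptors, 10 were lower in three-week replicate 1 than in replicate 2 and 4 were higher. The share over all tested genes is not given, so no excess is claimed. Some of the differences were small, as for Tnf (32.2 against 33.3 CPM) and Casp8 (7.67 against 7.91 CPM). A ratio over 1.5 was found for 4 of the lower genes, Il1b (428 against 920 CPM), Ptgs2 (1.55 against 6.53 CPM), Cxcl1 (0.697 against 1.15 CPM) and Tnfaip3 (4.18 against 6.68 CPM), and for 1 of the higher ones, Cxcl2 (3040 against 1890 CPM). Cxcl1 had only 9 and 15 counts in these libraries. Il1b, Cxcl1, Tnfaip3, Tnf and Casp8 are named after their values were seen. Erythroid markers summed to 1350 CPM in three-week replicate 1, within the 1210 to 1520 CPM of the naive and one-week libraries. In replicate 2 they summed to 577 CPM, the lowest of all libraries. Monocyte and macrophage markers summed to 2170 CPM in replicate 1 and 1740 CPM in replicate 2, the highest and lowest of all libraries. Their part in the Clec7a values was not tested.

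Genes with a pattern like a member were sought by Pearson's r of log2 CPM over the 6 libraries, among 3804 to 7698 genes with a mean of at least 5 CPM and an SD at least 0.5 times that of the member. With 6 points that share libraries, high values are found for every gene, and no p is given. The genes most like Clec12a were Mcpt8, a protease of basophils (r = 0.997), Ly6g5b (0.991) and Asf1b (0.987). Mcpt8 had 4.51 and 6.05 CPM in naive mice, 15.5 and 14.4 CPM at 1 week and 1.01 and 3.38 CPM at 3 weeks, and it belongs to the basophil list above. The genes most like Clec4a2 were Polg, the mitochondrial DNA polymerase (r = 0.997), Ndrg1 (0.996) and Nisch (0.996), all lower in both three-week libraries than in the other 4. For Clec7a they were Ccrl2, a chemerin-binding receptor (r = 0.982), Agpat5 (0.973) and Gp5 (0.960), each lowest in three-week replicate 1. For Clec4e they were Isy1, Ggps1 and Neurl4 (0.988 to 0.977), for Clec4d 4930453N24Rik, ENSMUSG00000079709 and Clasp2 (0.988 to 0.974), for Clec4n Smndc1, Atp6ap1 and Rela (0.975 to 0.958) and for Clec5a Spsb2, Cep44 and Stoml1 (0.996 to 0.981).

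The signal chain behind the activating receptors, a list of 30 genes of which 28 were tested, had 3 genes called at 1 week against naive mice, 1 higher and 2 lower. At 3 weeks 5 were higher and 3 lower against naive mice, and 7 higher and 1 lower against 1 week. These 3, 8 and 8 calls among 28 genes stand beside 7.99%, 21.4% and 22.5% of all genes called. The calls at 1 week, those of Tyrobp, Rel and Map3k7, depended on single libraries. The median log2 fold change of the list was -0.07, 0.12 and 0.16, against 0.01, 0.03 and -0.02 for all genes tested. The adaptor gene Fcer1g, which serves Clec4e, Clec4d and Clec4n, had 439 and 538 CPM in naive mice, 546 and 573 CPM at 1 week and 546 and 513 CPM at 3 weeks, and was not called (adjusted p = 0.368, 0.560 and 0.675 in edgeR). Tyrobp, the adaptor of Clec5a, had 514 and 610, 841 and 791, and 664 and 653 CPM. It rose at 1 week by 0.54 on the log2 scale (adjusted p = 0.0147), and the other comparisons gave 0.23 (adjusted p = 0.189) and -0.31 (adjusted p = 0.0731). Syk, the kinase both adaptors recruit, had 262 and 264, 212 and 208, and 237 and 232 CPM, and was not called (adjusted p = 0.0798, 0.294 and 0.319).

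Fgr and Lyn, kinase genes whose products phosphorylate these motifs, rose at 3 weeks. Fgr went from 198 and 227 CPM in naive mice and 207 and 207 CPM at 1 week to 310 and 306 CPM at 3 weeks, log2 fold changes of 0.53 (adjusted p = 0.00463 in edgeR) and 0.57 (adjusted p = 0.00281). Lyn had 348 and 364 CPM, 317 and 290 CPM, and 480 and 450 CPM, log2 fold changes of 0.38 (adjusted p = 0.0245) and 0.61 (adjusted p = 0.00147). For both genes the three-week libraries lay above the other 4. In the complex below Syk, Card9 was low, with 46 to 109 counts. It rose at 3 weeks from 3.64 and 4.01 CPM in naive mice to 8.45 and 6.30 CPM, or 0.95 on the log2 scale (adjusted p = 0.022). Bcl10 rose against both groups, by 0.61 (adjusted p = 0.00504) and 0.42 (adjusted p = 0.0332), and Malt1 was not called (-0.08, adjusted p = 0.793, and -0.07, adjusted p = 0.815). Plcg2, a phospholipase activated by Syk, fell by 0.44 (adjusted p = 0.0193) against naive mice and by 0.41 (adjusted p = 0.0248) against 1 week on the log2 scale.

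Further down, Rel, the gene of an NF-kappaB subunit, fell against naive mice at both times, by 1.24 (adjusted p = 0.0183 in edgeR) and 0.85 (adjusted p = 0.0438) on the log2 scale. Irf5, a transcription factor gene, fell at 3 weeks against naive mice by 0.65 (adjusted p = 0.0131). Map3k7, which encodes the kinase TAK1, fell at 1 week by 0.56 (adjusted p = 0.021), and between the weeks it rose by 0.39 (adjusted p = 0.0474). Ppp3r1 and Nfatc1, of the calcineurin and NFAT branch, rose between the weeks, by 0.62 (adjusted p = 0.00301) and 0.45 (adjusted p = 0.0182). Rising and falling members thus stood side by side in this list.

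**Figure D4:**
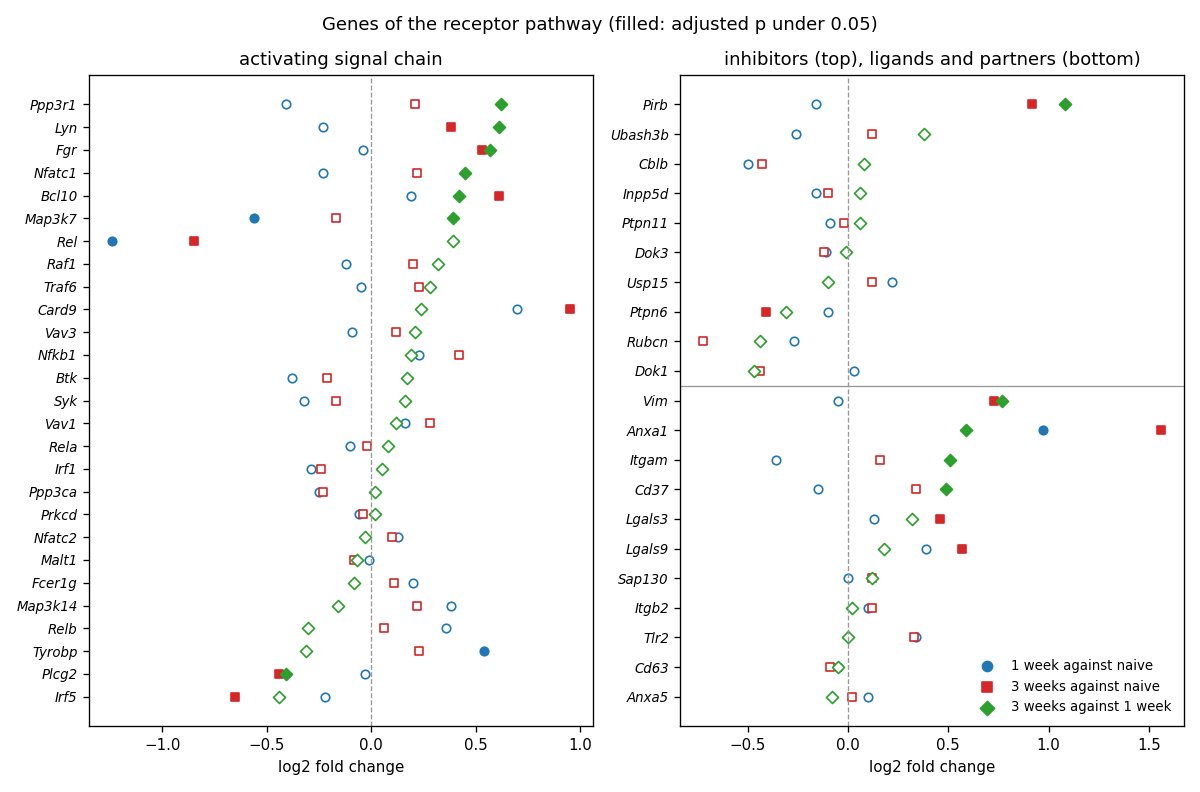
Log2 fold changes of tested genes of the activating signal chain (left, all but 1) and of inhibitors, ligands and partner proteins (right), with a circle for 1 week against naive mice, a square for 3 weeks against naive mice and a diamond for 3 weeks against 1 week, filled where the adjusted p is under 0.05 in edgeR. Fgr, Lyn and Bcl10 are filled to the right in both three-week comparisons, Pirb (0.92 and 1.08) likewise, and Plcg2 is filled to the left.

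Of 10 genes for inhibitors of the signal, 0 were called at 1 week in edgeR (0 at an unadjusted p under 0.05 and 0 in DESeq2), 1 higher and 1 lower at 3 weeks against naive mice and 1 higher against 1 week. Of all genes, 7.99%, 21.4% and 22.5% were called in these comparisons. Ptpn6, which encodes the phosphatase SHP-1 bound by the motifs of Clec4a2 and Clec12a, had 171 and 181 CPM in naive mice, 160 and 168 CPM at 1 week and 135 and 130 CPM at 3 weeks. It fell at 3 weeks against naive mice by 0.41 on the log2 scale (adjusted p = 0.0185 in edgeR) and had -0.31 (adjusted p = 0.0635) against 1 week. Pirb, an inhibitory receptor of another family with closely related genes beside it, had 233 and 275, 220 and 234, and 500 and 460 CPM. It rose at 3 weeks by 0.92 (adjusted p = 0.000169) and 1.08 (adjusted p = 4.27e-05), so the called inhibitory receptors did not all move one way.

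Ligands and partner proteins of the receptors numbered 11, all tested, with 1 called higher at 1 week, 4 higher at 3 weeks against naive mice, 4 higher between the weeks and 0 lower in edgeR or DESeq2. At an unadjusted p under 0.05, 1 was lower at 1 week. The share of all genes called in either direction was 7.99%, 21.4% and 22.5%. Anxa1, which encodes an annexin reported to bind Dectin-1, had 311 and 324 CPM in naive mice, 772 and 474 CPM at 1 week and 948 and 925 CPM at 3 weeks. It rose in all 3 comparisons, by log2 fold changes of 0.97 (adjusted p = 0.00568), 1.56 (adjusted p = 5.31e-05) and 0.59 (adjusted p = 0.0268). Vim, which encodes vimentin, rose at 3 weeks by 0.73 (adjusted p = 0.000527) and 0.77 (adjusted p = 0.000307). Lgals9 and Lgals3, galectin genes, rose against naive mice by 0.57 (adjusted p = 0.0122) and 0.46 (adjusted p = 0.0212). Cd37, a tetraspanin gene whose product associates with Dectin-1, and Itgam, an integrin subunit gene, rose between the weeks by 0.49 (adjusted p = 0.00796) and 0.51 (adjusted p = 0.0136).

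Of 23 genes known to be induced through these receptors, 14 were tested, and 8 were at 3 counts or fewer in all 6 libraries, among them Il6, Il10 and Il23a. At this depth, 3 counts correspond to 0.2 to 0.245 CPM. In edgeR 0 were called at 1 week (2 at an unadjusted p under 0.05, 0 in DESeq2), 3 higher and 2 lower at 3 weeks against naive mice, and 3 higher and 4 lower between the weeks. These calls stand beside 7.99%, 21.4% and 22.5% of all genes. Cxcl2, a neutrophil chemokine gene, had 954 and 664 CPM in naive mice, 703 and 562 CPM at 1 week and 3040 and 1890 CPM at 3 weeks, and rose by log2 fold changes of 1.61 (adjusted p = 0.000189) and 1.96 (adjusted p = 3.72e-05). Cxcl3 had 0 or 1 counts in naive mice, 2 and 4 counts at 1 week and 14 and 17 counts at 3 weeks. It passed the filter on low counts only through the three-week libraries, so its calls are not read as a result. It is 1 of the 3 genes counted as higher in each three-week comparison. The chemokine genes Ccl3 and Ccl4 fell at 3 weeks, by 1.27 (adjusted p = 0.00183) and 0.99 (adjusted p = 0.000802) on the log2 scale against naive mice and by 1.74 (adjusted p = 0.000156) and 0.89 (adjusted p = 0.00167) against 1 week. Ptgs2, the prostaglandin synthase gene, fell by 1.83 (adjusted p = 0.00817) between the weeks, with three-week replicate 1 lowest of all libraries.

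Among 32 other C-type lectin genes 15 were tested, and in edgeR 0 were called at 1 week (1 at an unadjusted p under 0.05, 0 in DESeq2), 1 higher and 7 lower at 3 weeks against naive mice, and 1 higher and 5 lower between the weeks. Of all genes, 9.42% were called lower at 3 weeks against naive mice and 9.57% between the weeks. The median log2 fold change of the 15 genes was -0.24, -0.81 and -0.35, against 0.01, 0.03 and -0.02 for all genes tested. Cd93 fell from 31.5 and 24.9 CPM in naive mice to 10.2 and 11.6 CPM at 3 weeks, or -1.37 on the log2 scale (adjusted p = 0.000101), and was called lower against 1 week as well (adjusted p = 0.000436). Thbd (thrombomodulin), Olr1 (the receptor for oxidized LDL) and Cd72 (an inhibitory receptor of B cells) fell as well, with log2 fold changes of -3.21, -2.14 and -2.27 against naive mice (adjusted p = 0.000299, 0.000623 and 0.000688). Their three-week reads were few, with 7 and 5 counts for Thbd, 18 and 24 for Olr1 and 14 and 12 for Cd72. Selp, which encodes P-selectin, was the gene that rose, by 0.86 on the log2 scale against naive mice (adjusted p = 0.0152) and also against 1 week (adjusted p = 0.00202). Clec4a3 and Clec4a1, neighbours of Clec4a2 named after their values were seen, had log2 fold changes of -1.05 (adjusted p = 0.0226) and -0.54 (adjusted p = 0.0692) at 3 weeks against naive mice. Unlike Clec4a2, Clec4a1 already had -0.64 at 1 week (adjusted p = 0.0652) and 0.10 between the weeks (adjusted p = 0.764). The paralog Clec4b1, also named after its values were seen, had -0.29 at 3 weeks against naive mice (adjusted p = 0.443).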

How the data were processed

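RNA from Ly6G-selected bone marrow neutrophils was sequenced in 6 libraries, with 2 in each of 3 groups named by the labels. The authors deposited RSEM expected counts in whole numbers, not scaled between libraries. The submitters' processing notes name RSEM 1.2.31, Bowtie2, DESeq2 and mm10 (GRCm38), and the labels give single-end reads of 75 bp, while the methods name another RSEM release and shorter reads. The strand setting of the counting is not given in the sources used here, so overlapping antisense reads cannot be told apart.

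Symbols came from a table of mouse gene names, which matched 37570 of 38887 identifiers, positions and exonic lengths from GENCODE release M21, and promoter windows from the RefSeq table of GRCm38.p6. Genes were filtered with filterByExpr, scaled by TMM (factors 0.9134 to 1.072) and tested in edgeR 4.0.16 (R 4.3.3), with the group as the only factor. DESeq2 1.42.0 was an alternative. The tests were checked on simulated counts. Chi-square per degree of freedom between replicates was 8.34 to 11.4, so no library was taken as deposited 2 times. Limits at 3 counts cover counting error only, since PCR reads are not independent molecules. Intervals are 95% intervals from the fit.

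The 7 members and the gene lists were chosen with earlier results of these data known. Named genes were the members, 7 fixed pathway genes, up to 4 called genes of smallest adjusted p per list and comparison, and 3 genes of most similar pattern per member. Where few genes of a list were called, others of them are named as well. The counts of the signal chain include 1 gene whose own values are not reported here. Lilrb4a of the inhibitor list was not matched. Replicate numbers did not pair the samples, with correlations of 0.0101 to 0.0379.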

Additional observations from a re-analysis of the deposited data

Results flagged for a closer look

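The change of Clec4a2 from naive mice differed between 3 weeks and 1 week, tested as three-week against one-week LL2 mice, by -0.37 on the log2 scale (adjusted p = 0.0285 in edgeR) and both three-week libraries below both one-week ones. For Clec12a the same difference was -0.63 (adjusted p = 0.0041), and its means lay above naive mice at 1 week (307 against 250 CPM) and below at 3 weeks (198 CPM). The summed markers of basophils, eosinophils and mast cells took the same order of groups as Clec12a. Among those tested, Siglecf, Ccr3, Ear6 and Il5ra did not, and the part of these markers in it was not tested.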

How the results depend on the processing

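Each member's change was recomputed under 7 other settings and with each of the 6 libraries left out. Under the other settings 134 values kept their direction and side of the threshold, 8 reversed and 5 became called, and with a library left out the numbers were 102 and 14, with 3 newly called and 7 lost. With scaling by library size only, which moved the median of all genes to 0.0653, -0.112 and -0.225, Clec4a2 and Clec4d at 1 week became 0.007 and 0.014, Clec4e at 3 weeks -0.123 and Clec4n between the weeks -0.068. Clec4e at 3 weeks was -0.005 with DESeq2 and with its size factors, -0.017 with only the groups compared and -0.009 with no filter. Members called at 3 weeks against naive mice were 2 by library size and 3 with no filter, and at 1 week 1 with no filter, which called 1537 genes in all at 1 week. DESeq2 called 5 genes of the signal chain at 1 week, and 3 and 4 of the induced genes in the three-week comparisons in place of 5 and 7. By library size 575 genes were higher and 263 lower at 1 week, 890 and 1675 at 3 weeks and 856 and 2136 between the weeks, in place of 518 and 461, 1471 and 1155, and 1586 and 1173. The causes were not tested.

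With 1 library left out, a lone library is assumed to vary like the other groups. Members called ranged from 0 to 0, 0 to 3 and 0 to 2 in the 3 comparisons, all genes from 147 to 1145, 1362 to 2392 and 1502 to 2725, and genes of the signal chain from 0 to 4, 4 to 7 and 4 to 7. At 1 week, log2 fold changes ranged from -0.114 to 0.011 for Clec4a2, -0.136 to 0.050 for Clec4d, -0.359 to 0.002 for Clec4n and -0.028 to 0.306 for Clec5a. At 3 weeks they ranged from -0.150 to 0.180 for Clec4e, -0.254 to 0.146 for Clec4n and -0.153 to 0.042 for Clec5a, and between the weeks from -0.864 to 0.331 for Clec7a. With the replicate block, members called were 0, 1 and 2, genes of the signal chain 3, 8 and 7, and all genes 959, 2559 and 2709, and it changed no member's call. With 2 libraries per group, small changes are not resolved.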
